A study of Mus musculus with 8 samples.

Results

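The regions described here are the stretches of chromatin at which SMAD4 complexes were enriched in mouse limb buds at both of the embryonic stages studied. They were chosen by the presence of a peak in both deposited peak lists. A peak of the E9.5 list was taken as shared if it overlapped a peak of the E10.5 list by at least 1 bp. This rule placed 387 of 2073 peaks of the E9.5 list (18.7%) and 387 of 6185 peaks of the E10.5 list (6.26%) in the shared set. They formed 390 overlapping pairs, because a few peaks of one list touched 2 or more peaks of the other. The remaining 1686 E9.5 peaks and 5798 E10.5 peaks are called E9.5-only and E10.5-only, and the 2 sets together are called single-stage.

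SMAD4 binding was mapped by chromatin immunoprecipitation and sequencing (ChIP-seq) in NMRI embryos of the genotype labelled Smad4Flag. These embryos were homozygous for a Smad4 allele with a triple FLAG tag (Smad4 3xF/3xF), and the M2 anti-FLAG antibody was used. All samples carried this allele, and no untagged or Smad4-deficient sample was part of the ChIP-seq series. Each stage had 2 ChIP replicates and 2 matching input samples, 8 samples in all. The E9.5 group was dissected at E9.75 according to the protocol, from about 80 embryos per replicate, as forelimb buds with trunk tissue still attached. The E10.5 group came from about 100 embryos per replicate and held both fore- and hindlimb buds. Stage and dissected tissue therefore changed together and cannot be told apart. Each deposited list holds only peaks found in both replicates, merged into 1 interval with 1 score, so that no spread between replicates can be given and the sequencing depth is unknown.

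SMAD4 is the common partner of the receptor-activated SMAD proteins. BMP and TGF-β ligands activate serine/threonine kinase receptors, which phosphorylate receptor SMADs, and these move with SMAD4 into the nucleus and bind regulatory DNA together with other transcription factors. The ID proteins, inhibitors of basic helix-loop-helix factors, and the inhibitory SMADs are well-known targets, and the latter feed back on the pathway. In the limb bud mesenchyme BMP signalling takes part in ridge formation, digit patterning, chondrogenesis and cell death.

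SMAD proteins bind short DNA elements. BMP-activated SMADs with SMAD4 recognise a GC-rich element read here as GGCGCC, followed after 5 bases by the SMAD4 half-site GTCT. A pair of abutting half-sites form the palindrome GTCTAGAC. Both were searched on both strands over the full length of the 390 overlaps, 0.791 Mb in total, a scan that was added after the data had been seen. The spaced element GGCGCC followed after 5 bases by GTCT was found 9 times in 9 pairs, of which 5 lay nearest to Id1, Id2, Id3 or Msx2 and 1 to Skil. The 8 sites whose flanks touch no untranslated exon are shown with 30 bases on either side, in the NCBIM37 (mm9) build and in the direction of the element. Capitals mark the 2 parts of the element. The Gspt1 site is outside the naming rule and was added after its values were seen.
Skil, chr3:30993451-30993525, plus strand: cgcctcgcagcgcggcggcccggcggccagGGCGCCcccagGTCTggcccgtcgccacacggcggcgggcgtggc
Id2, chr12:25783689-25783763, minus strand: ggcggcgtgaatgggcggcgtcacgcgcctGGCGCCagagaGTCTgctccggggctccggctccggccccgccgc
Id3, chr4:135696425-135696499, plus strand: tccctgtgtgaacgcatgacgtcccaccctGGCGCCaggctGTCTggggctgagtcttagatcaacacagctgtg
Id3, chr4:135703866-135703940, plus strand: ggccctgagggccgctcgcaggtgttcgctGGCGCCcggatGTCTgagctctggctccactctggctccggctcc
Ssbp2, chr13:91600235-91600309, plus strand: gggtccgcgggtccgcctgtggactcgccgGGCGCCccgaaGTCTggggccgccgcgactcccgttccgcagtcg
Id1, chr2:152565177-152565251, plus strand: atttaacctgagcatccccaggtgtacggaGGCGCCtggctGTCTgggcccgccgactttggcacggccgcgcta
Msx2, chr13:53571710-53571784, minus strand: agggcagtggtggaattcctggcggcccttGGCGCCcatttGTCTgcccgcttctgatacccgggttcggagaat
Gspt1, chr16:11253573-11253647, minus strand: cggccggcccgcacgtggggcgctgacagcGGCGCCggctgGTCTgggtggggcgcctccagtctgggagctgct

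The Skil, Id2, Id3, Id1 and Msx2 sites are intergenic in GENCODE vM1, and the Ssbp2 and Gspt1 sites are intronic. The ninth site lay 0.057 kb downstream of a 5′ end of Tulp4. Relative to the nearest protein-coding 5′ end, the Skil site lay 0.492 kb upstream, the Id2 site 2.77 kb upstream, the 2 Id3 sites 2.95 kb upstream and 3.01 kb downstream, the Id1 site 3.23 kb downstream and the Msx2 site 3.3 kb upstream. All sites near the Id genes and Msx2 thus fell just outside the 2.5 kb that defined promoter-proximal regions. The distance from a site to the centre of its peak had a median of 209 bp for the E9.5 peaks and 462 bp for the E10.5 peaks, and 4 and 3 of the 9 sites lay within 200 bp. The Skil site lay 85 bp from the E9.5 centre and 6 bp from the E10.5 centre, the upstream Id3 site 17 and 199 bp, the Id1 site 7 and 462 bp, the Id2 site 138 and 655 bp and the Msx2 site 209 and 104 bp.

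The density of the spaced element was 11.4 sites per Mb in the shared overlaps, 1.33 per Mb in the E9.5-only peaks (3 sites), 1.39 per Mb in the E10.5-only peaks (26 sites) and 0.175 per Mb over all chromosomes (447 sites). Among distal regions the same densities were 29.3 per Mb in shared overlaps (5 sites in 0.171 Mb, all near Id1, Id2, Id3 or Msx2), 0.604 in E9.5-only peaks and 1.31 in E10.5-only peaks. Among promoter-proximal regions they were 6.45, 3.31 and 1.49 per Mb. These densities rest on few sites and are given without a test. Shared regions were scanned over the overlap of the 2 peaks only, and single-stage regions over the whole peak. In the 300 bp windows around the peak centres, on which the tests were run, 4 of 387 shared E9.5 peaks (1.03%) and 0 of 1686 E9.5-only peaks held the spaced element (two-sided Fisher's test over peaks, exact p = 0.0012, adjusted p = 0.00677). A count of 0 in 1686 windows is a statement on these windows only. Among all E9.5 windows 0.193% held it. At E10.5, 2 of 387 shared (0.517%) and 5 of 5798 E10.5-only windows (0.0862%) held it, a difference that did not pass the test (adjusted exact p = 0.182). With windows centred on the middle of the overlap it passed (0.775% of shared peaks, adjusted exact p = 0.0448). The E9.5 difference passed among distal peaks (2.7 against 0%, adjusted exact p = 0.00321), but not among promoter-proximal peaks (0.362 against 0%, adjusted exact p = 0.718), CpG-rich windows (1.73 against 0%, adjusted exact p = 0.534) or the best score quartile (1.34 against 0%, adjusted exact p = 0.342). The 4 shared E9.5 windows with the element were those at Skil, Id2, Id3 and Id1. The distal call thus rests on the 3 windows near Id genes.

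The palindrome GTCTAGAC was more widespread, with 39 sites in 36 pairs (9.23% of pairs). The 6 best-ranked pairs that held it lay nearest to Smad7, Ccny, Cggbp1, Smad6, Gng7 and Atad2b. The sites near Cggbp1, Gng7 and Atad2b are shown with 30 bases on either side and the palindrome in capitals, to be compared with the sites above.
Cggbp1, chr16:64852324-64852391, plus strand: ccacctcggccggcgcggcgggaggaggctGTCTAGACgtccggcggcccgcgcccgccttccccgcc
Gng7, chr10:80450931-80450998, plus strand: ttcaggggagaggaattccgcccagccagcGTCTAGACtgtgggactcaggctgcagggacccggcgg
Atad2b, chr12:4923975-4924042, plus strand: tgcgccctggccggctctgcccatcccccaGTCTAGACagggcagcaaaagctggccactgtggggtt

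The Smad7 palindrome lay 0.35 kb upstream of the 5′ end, and the Smad6 palindrome at a 5′ end of that gene in an untranslated exon. The pair upstream of Kank4 held 2 palindromes whose starts were 14 bases apart, at chr4:98484620-98484627 and chr4:98484634-98484641. Counted in the same way as for the spaced element, the density of the palindrome was 49.3 sites per Mb in shared overlaps, 26.6 in E9.5-only peaks, 10.2 in E10.5-only peaks and 7.85 over all chromosomes. In the central 300 bp windows it was present in 10 of 387 shared E10.5 peaks (2.58%) and in 16 of 5798 E10.5-only peaks (0.276%), an odds ratio of 9.59 (two-sided Fisher's test, exact p = 1.76e-06, adjusted p = 2.11e-05). Among distal E10.5 peaks the counts were 6 of 112 and 13 of 3139 (odds ratio 13.6, adjusted exact p = 0.00024), and among promoter-proximal ones 4 of 275 and 3 of 2659 (odds ratio 13.1, adjusted exact p = 0.0101). In CpG-rich windows alone the E10.5 shares were 0.444 and 0.126%, and the difference did not pass the test (adjusted exact p = 0.971). At E9.5 no difference was detected. There 6 of 387 shared windows (1.55%) and 19 of 1686 E9.5-only windows (1.13%) held the palindrome (odds ratio 1.38, adjusted exact p = 0.725). In these windows the single-stage lists themselves differed, with 1.13% of E9.5-only and 0.276% of E10.5-only windows holding it (two-sided Fisher's exact test, odds ratio 4.12, unadjusted p = 4.25e-05). Over whole peaks the shares were close, at 58 of 1686 (3.44%) and 187 of 5798 (3.23%). The E10.5-only peaks were wider, with medians of 2599 against 1055 bp among distal and 2590 against 1433 bp among promoter-proximal peaks.

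**Figure D1:**
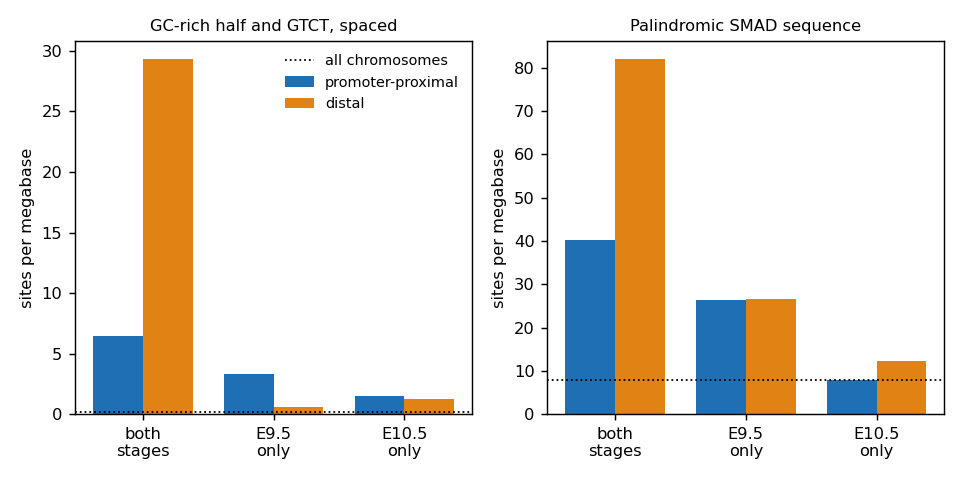
Sites per megabase of the spaced element (left, GGCGCC followed after 5 bases by GTCT) and of the palindrome (right, GTCTAGAC) in shared overlaps and in whole E9.5-only and E10.5-only peaks, with promoter-proximal regions in blue, distal regions in orange and the density over all chromosomes as a dotted line. The distal shared overlaps had the highest bars in both panels, at 29.3 and 82 sites per Mb.

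Shared regions were mostly promoter-proximal, that is, with the peak centre within 2.5 kb of the 5′ end of an annotated transcript. By the centre of the E9.5 peak, 279 of the 390 pairs were promoter-proximal (71.5%, 95% Wilson interval 66.9 to 75.8), 52 were intragenic (13.3%) and 59 intergenic (15.1%). These intervals cover counting error only. In terms of gene features, 139 centres lay in introns (35.6%), 115 between genes (29.5%), 82 in untranslated exons (21%), 45 in coding exons (11.5%) and 9 in non-coding exons (2.31%). For 343 pairs (87.9%) the nearest 5′ end of any kind belonged to a protein-coding gene. The class of the region was the same by the E9.5 and the E10.5 centre in 382 pairs, and the nearest protein-coding gene in 386.

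The promoter-proximal share was higher among shared than among single-stage peaks at both stages. At E9.5, 276 of 387 shared peaks (71.3%) and 360 of 1686 E9.5-only peaks (21.4%) were promoter-proximal (odds ratio 9.16 by the two-sided Fisher's exact test, adjusted p = 3.12e-76). At E10.5 the counts were 275 of 387 (71.1%) and 2659 of 5798 (45.9%, odds ratio 2.9, adjusted exact p = 3.43e-22). Shared peaks also scored higher, and so the comparison was repeated within quartiles of the score. Going up through the quartiles, the shares at E9.5 were 27.5, 64.9, 76.1 and 79.4% for shared peaks and 12.9, 16.5, 20.6 and 43.7% for E9.5-only peaks. At E10.5 they were 49, 62.5, 73.4 and 77.5% against 24.3, 45.4, 49.3 and 66.9%. The shared peaks were higher in all 8 comparisons (unadjusted exact p = 0.0171 at most). Peaks are not replicates of a stage, and these p-values describe the 2 lists. With only peaks scored 100 or more, 71 peaks per list counted as shared because their partner also scored 100 or more. Neither difference passed the test (odds ratio 1.37, exact p = 0.409 at E9.5 and 1.1, exact p = 0.881 at E10.5). The comparison group then held peaks with a weaker partner beside the single-stage peaks. This setting therefore does not compare shared with single-stage peaks.

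**Figure D2:**
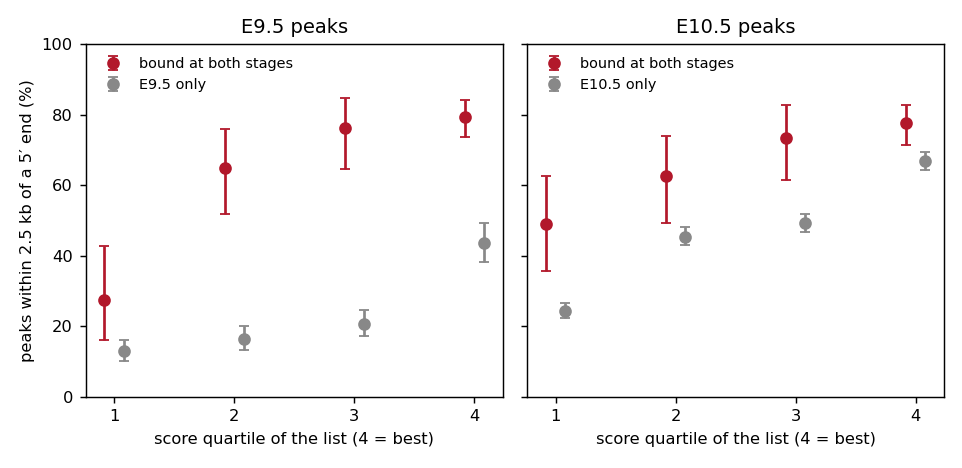
Share of peaks within 2.5 kb of a 5′ end (percent) by score quartile of the list, for peaks bound at both stages (red) and at 1 stage only (grey), with 95% Wilson intervals. The red points lie above the grey ones in every quartile, from 27.5 against 12.9% to 79.4 against 43.7% at E9.5 and from 49 against 24.3% to 77.5 against 66.9% at E10.5.

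Within the promoter-proximal class, shared peaks lay more often in CpG-rich DNA, defined as a window with at least 50% GC and an observed to expected CpG ratio of at least 0.6. This held for 216 of 276 shared and 198 of 360 E9.5-only promoter-proximal peaks (78.3% and 55%, odds ratio 2.95 by the same exact test, adjusted p = 1.86e-09), and for 213 of 275 and 1462 of 2659 at E10.5 (77.5% and 55%, odds ratio 2.81, adjusted exact p = 5.09e-13). Distal shared peaks were also more often CpG-rich, with 15 of 111 against 34 of 1326 at E9.5 (13.5% and 2.56%, adjusted exact p = 2.80e-06) and 12 of 112 against 122 of 3139 at E10.5 (10.7% and 3.89%, adjusted exact p = 0.0027). The median GC content of promoter-proximal windows was 72.7% for shared and 60.7% for E9.5-only peaks. Divergent promoters, where 2 protein-coding genes face away from each other within 1 kb, made up 5.07% of shared and 5.28% of E9.5-only promoter-proximal peaks (odds ratio 0.959, adjusted exact p = 1), and 5.09 and 7.22% at E10.5 (odds ratio 0.689, adjusted exact p = 0.269). Over all E9.5 peaks the divergent share was higher in shared peaks (3.62 against 1.13%, odds ratio 3.29, adjusted exact p = 0.00212), a difference not detected among promoter-proximal peaks alone.

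Of the 16 short sequences compared in 300 bp windows, 4 were more and 3 were less frequent in shared than in E9.5-only peaks, and 3 were more and 2 were less frequent in shared than in E10.5-only peaks (two-sided Fisher's exact tests, adjusted over 96 tests). GGCGCC was present in 31.3% of shared and 8.36% of E9.5-only windows (adjusted exact p = 7.46e-27) and in 30 and 12% at E10.5 (adjusted exact p = 5.92e-18). Among all E9.5 windows 12.6% held it, and 13.1% of all E10.5 windows. GGGCGGG, the letters of an SP/KLF site, was present in 37 against 10.4% at E9.5 and 34.4 against 16.1% at E10.5 (adjusted exact p = 9.30e-31 and 1.05e-15). The single SMAD half-site with flanking bases, CAGAC, was less frequent in shared windows, at 48.1 against 63.5% at E9.5 (adjusted exact p = 4.41e-07) and 46.3 against 53.6% at E10.5 (adjusted exact p = 0.0241). The E10.5 difference in CAGAC did not pass with 200 bp windows (34.6 against 40%, adjusted exact p = 0.146), with windows around the middle of the overlap (49.1 against 53.6%, adjusted exact p = 0.26) or among promoter-proximal peaks (46.9 against 49.2%, adjusted exact p = 0.741), and the E9.5 difference did not among distal peaks (53.2 against 64.9%, adjusted exact p = 0.0603). Also less frequent were CCAAT and AGATAA at E9.5 (17.6 against 28.3% and 3.62 against 9.91%) and TGAGTCA, the letters of an AP-1 site, at E10.5 (1.03 against 4.17%, adjusted exact p = 0.0044). The TGAGTCA difference did not pass with windows around the middle of the overlap (3.1 against 4.17%, adjusted exact p = 0.668) or among distal peaks (2.68 against 5.51%, adjusted exact p = 0.589). In subsets with fewer peaks neither CCAAT nor AGATAA passed at E9.5. For CCAAT the odds ratio was 0.54 over all peaks, 0.614 among promoter-proximal peaks (15.9 against 23.6%, adjusted exact p = 0.0603) and 0.657 among distal peaks (adjusted exact p = 0.212). For AGATAA it was 0.341, 0.372 (1.81 against 4.72%, adjusted exact p = 0.147) and 0.692 (adjusted exact p = 0.618). CCGGAAGT, the letters of an ETS site, was more frequent at E9.5 (2.84 against 0.771%, adjusted exact p = 0.0101), but not with 200 bp windows (1.29 against 0.652%, adjusted exact p = 0.481), among promoter-proximal peaks (3.62 against 1.67%, adjusted exact p = 0.316) or among distal peaks (0.901 against 0.528%, adjusted exact p = 0.736). In the best score quartile, a subset added after the data had been seen, the calls were lost for CCGGAAGT (3.57 against 2.37%, adjusted exact p = 0.879), CCAAT (14.7 against 20.7%, adjusted exact p = 0.342) and AGATAA at E9.5 (4.02 against 9.15%, adjusted exact p = 0.162) and for CAGAC at E10.5 (45.4 against 49.7%, adjusted exact p = 0.735).

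The comparison was repeated in subsets of the windows. Among promoter-proximal windows alone, GGCGCC was present in 40.2 against 26.9% at E9.5 (adjusted exact p = 0.00321) and 40 against 22.2% at E10.5 (adjusted exact p = 7.49e-09). Among distal windows it was present in 9.01 against 3.32% at E9.5 (adjusted exact p = 0.0289) and in 5.36 against 3.44% at E10.5, where the difference did not pass the test (adjusted exact p = 0.589). GGGCGGG did not pass among distal E10.5 windows either (10.7 against 5.58%, adjusted exact p = 0.113). Among CpG-rich windows alone, none of the 16 sequences differed after adjustment at either stage, and GGCGCC stood at 49.4 against 42.7% at E9.5 and 46.7 against 35.7% at E10.5 (adjusted exact p = 0.695 and 0.0609). GGGCGGG stood there at 52.4 against 44.4% at E9.5 and 49.8 against 44.2% at E10.5 (adjusted exact p = 0.604 and 0.659). The odds ratio of CAGAC at E9.5 was 0.529 in these windows (44.6 against 60.3%, adjusted exact p = 0.0609) and 0.531 in all windows. That of TGAGTCA at E10.5 was 0.231 in CpG-rich windows (0.444 against 1.89%, adjusted exact p = 0.695) and 0.24 in all windows. Why these calls were lost was not tested. CAGAC at E10.5 stood at 43.1 against 41.2%. That restriction was added after the data had been seen. At an unadjusted p under 0.05 it left 1 sequence different at E9.5, CAGAC, and 2 at E10.5. CpG-rich windows are a subset with fewer peaks.

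The 2 peaks of a pair occupied nearly the same DNA. The overlap had a median of 1848 bp (quartiles 1316 and 2415 bp), and covered a median of 99.5% of the E9.5 peak and 89.8% of the E10.5 peak. In 181 pairs the E9.5 peak lay wholly inside the E10.5 peak, and in 46 the reverse held. Each peak covered at least 50% of the other in 350 pairs, in 260 of 279 promoter-proximal pairs (93.2%) and in 90 of 111 distal pairs (81.1%). Promoter-proximal E9.5 peaks were wider than distal ones, with medians of 2128 and 1402 bp. Overlap chose the pairs, so these shares carry no test. The centres were within 250 bp of each other in 80.6% of promoter-proximal and 58.6% of distal pairs.

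No pair was near the 1 bp limit. The smallest overlaps were 394 bp near Rwdd2a, 509 bp at Poc1b and 538 bp far from any coding gene, 1237 kb from the 5′ end of Dnajb9. Just outside the rule, the closest E9.5-only peaks were separated from an E10.5 peak by 239 bp near Hoxb3, 297 bp near Bmyc and 355 bp near Itgam. Only these 3 E9.5-only peaks had a gap of 500 bp or less, and 53 had one of 5000 bp or less.

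Scores and ranks were part of what brought a region into both lists, so they are given as a description. All 10 best E9.5 peaks, 45 of the best 50 and 79 of the best 100 had an E10.5 partner, as did 9 of the 10, 31 of the 50 and 47 of the 100 best E10.5 peaks. The ranks of the 2 stages were only loosely related across all pairs, with a Spearman rho of 0.357 over 390 pairs, 0.27 over the promoter-proximal, 0.495 over the intragenic and 0.352 over the intergenic pairs. In percentiles within each list, where 100 is the best score, promoter-proximal pairs had medians of 86.5 (E9.5) and 83 (E10.5). Intergenic pairs had medians of 78.2 and 74.3. Intragenic pairs stood lower at E9.5, with a median of 32.8, than at E10.5, with 67.6, and 32 of the 52 had the better percentile at E10.5. In 75 pairs both peaks were in the best 10% of their lists, 58 of them promoter-proximal, and in 42 pairs both were below percentile 50, of which only 12 were promoter-proximal.

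**Figure D3:**
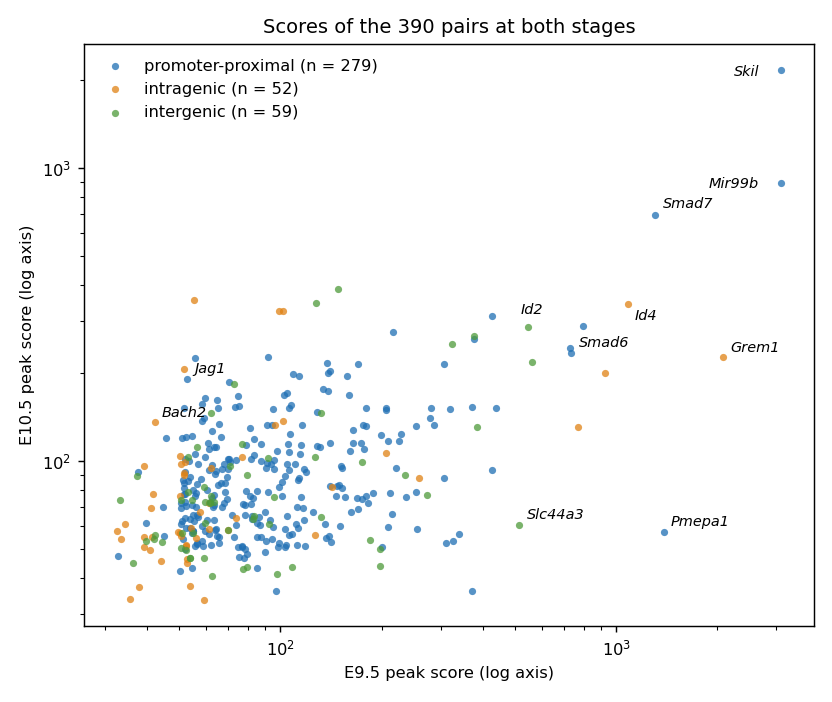
Score of the E9.5 peak against the score of the E10.5 peak for each of the 390 pairs, both on log axes, with promoter-proximal pairs in blue, intragenic in orange and intergenic in green, and named genes in italics. Skil and Mir99b share the highest E9.5 score of 3100 and hold the 2 highest E10.5 scores, 2155 and 892. By rank within each list, Pmepa1 and Slc44a3 stood far higher at E9.5 than at E10.5, and Jag1 and Bach2 the reverse.

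Ranks are counted from the best score, among 2073 (E9.5) and 6185 (E10.5) peaks, so that a rank has its meaning only within its own list. The pair with the best summed ranks lay at Skil, which encodes SnoN, a co-repressor that binds SMADs. The Skil pair, chr3:30991898-30995249 at E9.5 and chr3:30991944-30995045 at E10.5, was centred 0.407 kb upstream of the 5′ end and ranked first in both lists, with scores of 3100 and 2155. Next was a region 1.634 kb upstream of Mir99b, at chr17:17962771-17968266, the first hairpin of the miR-99b, let-7e and miR-125a cluster, with scores of 3100 and 892. The 10 best pairs further held Smad7, Id4, Ccny, Id2, Cggbp1, Grem1, Id1 and Smad6. Their ranks ran from 3 to 17 at E9.5 and from 3 to 25 at E10.5. Ccny encodes a membrane-bound cyclin and Cggbp1 a protein that binds CGG repeats. Of these 10 pairs, 7 were nearest to genes of the BMP and TGF-β lists, as were 8 of the best 20 and 19 of all 390.

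The 5 best distal pairs lay near Id4, Id2, Grem1, A130050O07Rik and Dennd4b. The Id4 pair, chr13:48322998-48323988, was 33.3 kb upstream of Id4, inside an annotated intron, and ranked 6 and 7. The Grem1 pair, chr2:113588861-113590602, lay 9.072 kb downstream of the Grem1 5′ end in an untranslated exon and ranked 3 (E9.5) and 25 (E10.5). The pair near A130050O07Rik, 27.93 kb upstream of it, ranked 21 and 15, and the pair 15.42 kb downstream of the Dennd4b 5′ end ranked 12 and 29. Distal pairs as a whole had a median distance of 25 kb to the nearest protein-coding 5′ end, and 22 of the 111 lay more than 100 kb away.

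Gene lists were compared by the protein-coding gene nearest to the E9.5 centre. The pairs lay nearest to 377 of the 22238 protein-coding genes annotated (1.70%). Of the 78 genes in the BMP and TGF-β lists, 17 were nearest to a shared region (21.8%), 18 to an E9.5-only peak, against 6.57% of all coding genes, and 38 to an E10.5-only peak, against 20.3% of all. A gene can be nearest to peaks of several kinds. The lists were drawn up with results of these data known, and the counts carry no test.

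The members are given by their role in the pathway, against the share of 1.70% of all coding genes. The counts were 0 of 13 for the ligands and 0 of 6 for the receptor SMADs and SMAD4, lists too short to show a lack. Among the secreted modulators 2 of 15 were, Grem1 and Nog, which both encode BMP antagonists. The Nog pair was weak at both stages, with scores of 54.38 and 57.1 and ranks of 1174 and 3603, in contrast to Grem1 with 2076 and 226. Among the receptors and co-receptors 2 of 13 were. Bmpr2, the type II BMP receptor, had a pair 0.995 kb upstream with scores of 439.1 and 151.5 (ranks 15 and 108). The pair at Rgma, a BMP co-receptor, scored 51.92 and 72.83 (ranks 1447 and 1583).

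The intracellular inhibitors had a larger share than any other list, with 7 of 13 (53.8%, against 1.70% of all coding genes). These were Skil, the inhibitory SMADs Smad6 and Smad7, Smurf2, a ubiquitin ligase for receptors and SMADs, Pmepa1, which sequesters receptor SMADs, Bambi, a pseudoreceptor, and Tob1, an antiproliferative protein that binds SMADs. All 7 regions were promoter-proximal, as were 71.5% of all pairs. Smad7 scored 1307 and 693.6 (ranks 5 and 3) and Smad6 scored 734.3 and 234.9 (ranks 10 and 21). The other 4 did not rank high at both stages. The Pmepa1 region scored 1383 at E9.5 (percentile 99.9), the fourth best of its list, and 57.52 at E10.5 (percentile 42.9). Smurf2 stood at percentiles 95.4 and 50.4, with scores of 150.4 and 60. Bambi went the other way, with a score of 54.65 and percentile 44.1 at E9.5 and a score of 122.2 and percentile 96.2 at E10.5. Tob1 stood at percentiles 57.4 and 19.9. Of the same 13 genes, 7 were also nearest to an E9.5-only peak, against 6.57% of all coding genes, and 8 to an E10.5-only peak, against 20.3% of all.

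Of the 18 transcription factor targets, 6 were nearest to shared regions, in 8 pairs. All 4 Id genes were among them. Id2 had 1 pair, centred 2.631 kb upstream, with scores of 544.3 and 287.4 (ranks 13 and 12). Id1 had 2 pairs. The one over the gene body scored 730.3 and 244 (ranks 11 and 19), and the one 3.234 kb downstream of its 5′ end scored 62.04 and 146.4 (ranks 710 and 125). Id3 had 2 pairs on either side of the gene, 2.967 kb upstream with scores of 324.2 and 251.8 (ranks 25 and 18) and 3.471 kb downstream of the 5′ end with scores of 385.2 and 130.5 (ranks 19 and 180). Id4 had the pair 33.3 kb upstream of it given above. Msx2, a homeobox gene of the limb mesenchyme and ridge, had a pair 3.095 kb upstream that ranked 121 at E9.5 and 2410 at E10.5. Hey1, a hairy-related repressor, ranked 95 and 600. Of the 19 pairs nearest to BMP and TGF-β genes, 7 were distal, and 11 were in the best 10% of both lists.

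**Figure D4:**
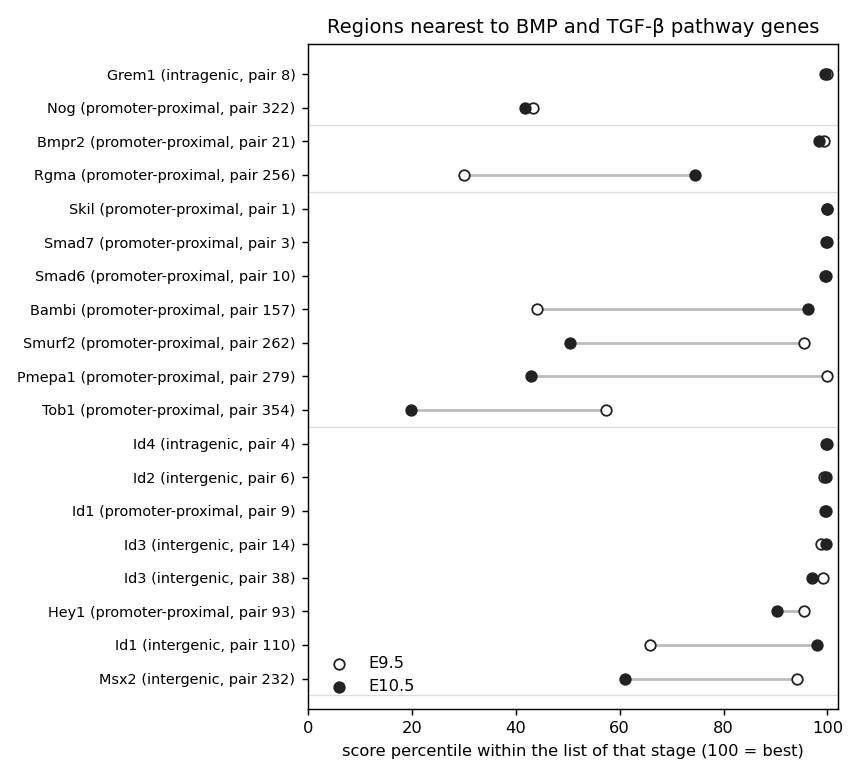
Score percentile within the list of each stage (100 is the best) at E9.5 (open circles) and E10.5 (filled circles) for the 19 pairs nearest to BMP and TGF-β genes, grouped from top to bottom as secreted modulators, receptors, intracellular inhibitors and transcription factor targets. Skil, Smad7, Smad6, Grem1 and most Id pairs sit at the right edge at both stages, whereas Pmepa1 stands at percentiles 99.9 (E9.5) and 42.9 (E10.5), and Bambi at 44.1 and 96.2.

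Of the other signalling lists, the Notch list had the largest share. There 3 of 16 genes were nearest to shared regions (18.8%, against 1.70% of all coding genes). The repressor Hes1 had 3 pairs within 2.5 kb of its 5′ end with E9.5 ranks of 26, 230 and 77, of which the first 2 overlapped the same E10.5 peak at rank 110 and the third a peak at rank 1933. The receptor Notch3 ranked 113 and 45. The ligand Jag1 ranked 1350 (E9.5) and 52 (E10.5). The SHH list had 1 of 12 (8.33%; Smo, the signal transducer, ranks 797 and 2599), the FGF list 1 of 17 (5.88%; Spred1, an inhibitor of ERK signalling, ranks 1761 and 1876), the WNT list 1 of 22 (4.55%; Ctnnb1, β-catenin, ranks 221 and 378) and the retinoic acid list 0 of 11.

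Among limb transcription factor genes, 4 were nearest to a shared region. The homeobox list had 1 of 22 (4.55%, against 1.70% of all coding genes), Pbx3, with an intronic pair 122.7 kb downstream of the 5′ end that ranked 1493 and 789. The list of T-box, bHLH, zinc finger and SOX genes had 0 of 17, while 4 of them were nearest to an E9.5-only peak, against 6.57% of all coding genes, and 10 to an E10.5-only peak, against 20.3% of all. The Hox list had 3 of 39 (7.69%), Hoxa4 (ranks 818 and 454), Hoxd8 (ranks 137 and 2127) and Hoxc4 (a pair 26.24 kb downstream of its 5′ end, ranks 344 and 787). Hox genes lie in clusters, and 26 of 39 had a 5′ end within 100 kb of a shared region, against 5.76% of all coding genes.

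The lists of general cell functions are given against the share of 1.70% of all coding genes. They had 1 of 24 for cholesterol synthesis (4.17%, Cyp51, ranks 39 and 1385) and 1 of 82 for cytoplasmic ribosomal proteins (1.22%, Rps24, whose pair lay 338 kb from its 5′ end). The immediate early and stress genes had 2 of 25 (8%, Klf10, ranks 463 and 55, and Ier2, ranks 1615 and 5237). The splicing factors had 1 of 19 (5.26%, Hnrnph1, ranks 548 and 672). There were 0 of 67 for replication-dependent histones and 0 of 20 for matrix and cytoskeleton genes. Lists of tissues that the dissections could hold beside limb bud mesenchyme had 0 of 12 for ectoderm and ridge, 0 of 12 for somite and muscle, 0 of 11 for neural tube and crest, 0 of 9 for lateral trunk mesoderm, and 1 of 14 for endothelium and blood (Hbb-b1, a β-globin gene, 2.849 kb from the centre, ranks 997 and 2403). Over these 5 lists, 1 of 58 genes was nearest to a shared region (1.72%, against 1.70% of all coding genes), 12 of 58 were nearest to an E9.5-only peak, against 6.57% of all, and 21 of 58 to an E10.5-only peak, against 20.3% of all.

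Some regions held a high rank at only 1 of the 2 stages. In 76 pairs (19.5%) the percentile differed by more than 50 between stages, and in 137 (35.1%) by less than 10. Among pairs in which each peak covered at least 50% of the other, the largest falls from E9.5 to E10.5 were an intergenic pair nearest to Rps24 (percentile 97.2 to 9.22), a pair at Poc1b (89.3 to 2.07), a pair 10.19 kb upstream of Zfhx3, a homeobox and zinc finger factor (97.2 to 13.2), a pair 110.7 kb upstream of Pde3a (89.4 to 6.69) and the promoter of Ctcf, which encodes the architectural CTCF protein (97.3 to 18). The largest rises were in an intron 31.7 kb downstream of the 5′ end of Bach2, a transcriptional regulator (12 to 97.5), in an intron of Hivep3 (7.17 to 90.4), at the promoter of Trpm7, an ion channel kinase (5.5 to 88.1), 43.44 kb upstream of Ctbp2, a co-repressor (5 to 86.9), and at the promoter of the polarity gene Pard3 (15.9 to 96). The groups differ in tissue as well as age, and without replicate scores the error of such a shift is not known.

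Of the 377 genes, 11 (2.92%) were nearest to 2 or more pairs. Dact3, which encodes a scaffold protein that inhibits WNT signalling, had 3 pairs, the best of which lay in an intron 5.38 kb downstream of the 5′ end with a score of 770.9 at E9.5 (rank 9) and 131.2 at E10.5 (rank 176). Hes1 also had 3. Id1, Id3, Arid1b, Bcor, Eif4e3, Hhat, Mfap4, Nr6a1 and Poc1b had 2 each. Some of these pairs had a peak in common. The pairs of Bcor, those of Hhat and 2 of those of Hes1 each overlapped 1 E10.5 peak, and the pairs of Nr6a1, those of Mfap4 and 2 of those of Dact3 each overlapped 1 E9.5 peak.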

How the data were processed

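The authors trimmed reads, aligned them to mm9 with Bowtie 1.1.0 and called peaks with MACS 1.4 in each replicate against its own input, then kept and merged peaks found in both replicates. The deposited score of a peak (column 5) has no named unit. According to the paper, each retained peak was given the best MACS p-value of its overlapping replicate peaks. The score values fit a transform of such a p-value, so the score depends on sequencing depth, and scores were compared by rank within a list. No column of per-sample values was left unused (0).

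Overlaps of at least 1 bp, distances to GENCODE vM1 5′ ends in NCBIM37 (the mm9 build) and windows of 300 bp around peak centres were computed with Python 3.11.15, pandas 2.3.3, SciPy 1.17.1 and pysam 0.24.0. Sequences were searched on both strands by exact letters in plain FASTA, repeats included: the SMAD elements CAGAC with its longer form CAGACC, the palindrome GTCTAGAC, the BMP-type GGCGCC and the spaced element in which GTCT follows it after 5 bases, then TGACTGAC or TGATTGAC, the letters of AP-1 (TGAGTCA), CRE (TGACGTCA), CCAAT box, SP/KLF (GGGCGGG), ETS (CCGGAAGT), homeodomain (TAATTA), E-box (CAGCTG) and GATA-type (AGATAA) sites, and an NRF1 element. CAGACC contains CAGAC, and the spaced element contains GGCGCC. Shares were compared by two-sided Fisher's exact tests over peaks, adjusted by Benjamini-Hochberg within each family of tests. Functions were checked on simulated data.

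Named regions were the 10 best summed ranks, the 5 best promoter-proximal and distal pairs, the 5 largest rises and falls in percentile, the 3 smallest overlaps and gaps, all pairs of the BMP and TGF-β lists and the 4 best of every other list, and the 6 best with each SMAD element described. The members and the gene lists were chosen with earlier results of these data known. Other settings tried were stricter sharing rules, promoter distances, window sizes, a score cut and gene assignment within 100 kb.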

Additional observations from a re-analysis of the deposited data

How the results depend on the processing

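No paired analysis was possible because each list holds both replicates merged, and for the same reason no replicate could be left out. The number of shared peaks was 350 in each list with reciprocal overlap of 50% and 290 with centres within 250 bp. It fell to 71 in each list with only peaks scored 100 or more, and to 246 E9.5 and 243 E10.5 peaks when the E10.5 list was cut to 2073 peaks, both of which remove peaks by construction. The promoter-proximal share of pairs was 66.4% with protein-coding transcripts only, 77.5% among pairs scored 100 or more, and 71 to 74.4% otherwise. With only peaks scored 100 or more, the promoter odds ratios were 1.37 (E9.5) and 1.1 (E10.5) and did not pass the test. In that setting peaks with a partner scored below 100 were counted with the single-stage peaks. For divergent promoters the odds ratio was 3.29 at E9.5, which passed the test, and 1.1 at E10.5, which did not (adjusted exact p = 0.854), and among promoter-proximal peaks it was 0.959 and 0.689.

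The number of sequences more frequent in shared windows, 4 at E9.5 and 3 at E10.5, became 0 and 0 in CpG-rich windows. It became 2 at E9.5 in the best score quartile and 2 among promoter-proximal peaks, and 1 at E10.5 among distal peaks. The number less frequent, 3 and 2, became 5 and 4 with 600 bp windows, 0 and 0 in CpG-rich windows, 1 and 1 in the best score quartile, 1 and 1 among promoter-proximal peaks and 0 and 1 among distal peaks. At E10.5 it became 1 with 200 bp windows and 4 with reciprocal overlap of 50%. Subsets have fewer peaks. Otherwise the cause was not tested.

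The odds ratio changed side, in comparisons not called under that setting, for GTCTAGAC at E9.5 (0.937 with reciprocal overlap, 0.248 in CpG-rich windows, 0.987 in the best score quartile, 0.78 among promoter-proximal peaks), TGAGTCA at E9.5 (1.35 in CpG-rich windows, 1.56 among distal peaks), CAGAC at E10.5 (1.08 in CpG-rich windows), CCGGAAGT at E10.5 (0.776 in CpG-rich windows, 0.975 in the best score quartile, 0 among distal peaks) and, among distal E10.5 peaks, CCAAT (1.03) and AGATAA (1.15). The settings of CpG-rich windows and best score quartile were added after the data had been seen. The 17 BMP and TGF-β genes were 18 within 100 kb, and the 33 genes of all lists 72, of which 26 were Hox genes. The unknown depth limits what ranks between the lists can show.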

Other observations

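Gene groups noticed in the list of pairs, and counted only after they had been seen, give the following values. The ARID subunits of SWI/SNF chromatin remodelling complexes were all represented, with promoter-proximal pairs at Arid2 (ranks 32 at E9.5 and 107 at E10.5), Arid1b (116 and 30) and Arid1a (401 and 77). Of 15 complex subunits, 3 were nearest to a shared region (20%, against 1.70% of all coding genes). Of the same 15, 10 were nearest to an E10.5-only peak, against 20.3% of all, and 0 to an E9.5-only peak, against 6.57% of all. Of the genes of Polycomb repressive complex 1, 3 of 16 were nearest to a shared region (18.8%, against 1.70% of all). These were Rybp (ranks 43 and 267), Yaf2 (237 and 559) and Bcor, where 2 E9.5 peaks (ranks 107 and 210) overlapped the same E10.5 peak of rank 1093 by 100 and 94.9% of their length. Of the 16, 1 was nearest to an E9.5-only peak and 4 to an E10.5-only peak. Of the 4 Mex3 genes, which encode RNA-binding ubiquitin ligases, Mex3b (ranks 53 and 114) and Mex3c (176 and 215) had promoter-proximal pairs (50%, against 1.70% of all coding genes nearest to a shared region). Of 371 zinc finger genes identified by symbol 13 were nearest to a shared region (3.5%, against 1.70% of all coding genes), among them Zfp827 (ranks 20 and 17), Zfp148 (75 and 32) and Zfp410 (54 and 106). Of 10 Spred, Sprouty and dual-specificity phosphatase inhibitors of ERK signalling, 1 was (10%), Spred1, and 7 were nearest to an E10.5-only peak. Since these groups were picked for their presence among the pairs, the counts carry no test.

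The nearest 5′ end of any kind belonged to a microRNA gene in 7 pairs, to a lincRNA gene in 5 and to another processed transcript in 16.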
